A study of Oryctolagus cuniculus with 20 samples.

Results

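The prostaglandin synthases PTGS1 and PTGS2 were followed in the condylar cartilage of the rabbit temporomandibular joint, the tissue that covers the articular head of the jaw. All probes for either gene were taken, 4 of the 43603 probes on the array, 1 for PTGS1 and 3 for PTGS2. The files name these genes COX-1 and COX-2 and give no location for them; RefSeq lists these names for PTGS1 (gene ID 100009407) and PTGS2 (gene ID 100009248). Total RNA of 20 male rabbits, 6 months old per the labels, was hybridised to 20 one-colour arrays, 4 for each of 5 groups. In the operated groups the left joint had undergone surgical internal derangement, and the cartilage was sampled after 1, 2, 4 or 8 weeks; control rabbits received no treatment. The labels give no sham-operated group and no time for the control group, so the operation, the derangement and elapsed time cannot be told apart. The design text assigns separate rabbits to the groups, and p-values measure the spread between these arrays.

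Prostaglandin G/H synthases turn arachidonic acid, released from membranes by phospholipase A2, into prostaglandin H2, which terminal synthases convert to the individual prostaglandins and thromboxane. PTGS1 is the form that many tissues express constitutively, and PTGS2 is the form that cytokines such as interleukin 1 and TNF induce, in chondrocytes among other cells. Prostaglandin E2, which acts through the receptors PTGER1 to PTGER4, is a known mediator of joint pain and inflammation, and PTGS1 is also abundant in platelets.

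The 60-base probes of the array decide what was measured, so the PTGS1 probe and the PTGS2 probe that lies nearest the 5′ end of its transcript are shown, as deposited. The longest run of bases that both hold is 5 bases long. Capitals mark the first such run in the PTGS1 probe, and a later run of that length, TCCTT, is left in lower case.
PTGS1 probe A_04_P001156: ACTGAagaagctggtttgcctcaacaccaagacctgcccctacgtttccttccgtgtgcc
PTGS2 probe A_04_P041862: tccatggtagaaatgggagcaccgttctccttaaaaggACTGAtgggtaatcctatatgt
Their best ungapped alignment matched 22 of 57 bases. The PTGS1 probe starts at base 1731 of its transcript and has 55.0% G and C, and the PTGS2 probe shown starts at base 1572 and has 43.3%. The other PTGS2 probes, A_04_P000852 and A_04_P000851, start at bases 3141 and 3242, and each has 35.0% G and C. Runs shared between the PTGS1 probe and these 2 probes were 8 and 6 bases long at most.

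Levels are log2 of the deposited intensity minus log2 of the array's 75th percentile of intensity, so a level of 0 is the brightness that 75 of 100 spots do not exceed. Testing took in the 26922 probes that were well above background in at least 1 group, on 3 or more of its 4 arrays. The PTGS1 probe and the PTGS2 probes at 3141 and 3242 were well above background on all 20 arrays. The PTGS2 probe at 1572 was above background on 0 of 20 arrays, with intensities of 3.3 to 15.7, and was not kept. The brighter kept probe, at 3141, stands for PTGS2 unless another is named.

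Facts of the whole series bear on these values. Each group lay on a slide of its own, so slide and group cannot be told apart; the control and 2-week slides were scanned on one day and the 1-, 4- and 8-week slides on another, so scan day cannot be told apart from the operation in comparisons of 1, 4 and 8 weeks with control. The 75th percentile of intensity was 174.1 to 642.9, lowest in replicate 4 of the 1-week group, and 49.1% to 66.4% of spots were well above background. The cartilage markers with a probe were 4 of 9. COL2A1, ACAN and CNMD were well above background on every array, and SOX9 on 4, 0, 2 and 2 of 4 arrays at 1, 2, 4 and 8 weeks and on 0 of 4 in control. Mean levels of these 4 genes were 1.56 to 4.12, 0.20 to 1.30, 1.84 to 3.18 and 0.03 to 1.84 at these times, and 0.67 to 1.79 in control. SOX9 was called higher at 1 week (a fitted 1.63, limma adjusted p = 0.0192, and 0.107 without control replicates 1 and 2), as 9.76% of kept probes were. COL2A1, ACAN and CNMD were not called, and the part of cartilage content in the results was not tested. The mean level of the 8 kept skeletal muscle genes was -5.30 to -3.12 on the 16 operated arrays, and 1.03, 3.77, -1.28 and -2.59 in control replicates 1 to 4. Control replicates 1 and 2 thus stand apart by muscle RNA. Values without these arrays follow for both synthases and the called pathway genes, with counts for the others. Control replicates 3 and 4 also lay above all 16 operated arrays. Without control replicates 1 and 2, the muscle genes MYH1, TNNC2, NEB and CASQ2 were still called lower at 8 weeks (-4.4 to -3, limma adjusted p = 0.00103 to 0.00873). TTN, ATP2A1, ACTA1 and CKM were lower without a call. The reduced control set is thus not free of muscle RNA. In bulk tissue, fewer cells of a type and less RNA per cell cannot be told apart.

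PTGS1 was higher at 8 weeks than in control, and this was its 1 called difference among 7 comparisons. Its levels were 0.46, 0.64, 0.62 and 0.39 on the 8-week arrays and -0.99, -0.98, -0.18 and -0.13 on the control arrays. All 4 of the 8-week arrays lay above all 4 control arrays, and the 8-week arrays were close together while the control arrays formed a low and a high pair. In deposited intensity the 8-week arrays read 481.7, 777.6, 685.7 and 629.2 units, against 245.2, 194.7, 282.3 and 308.8 units in control. The mean level was 0.53 ± 0.12 at 8 weeks and -0.57 ± 0.48 in control (SD, n = 4 each). The difference was 1.1 ± 0.22 on the log2 scale (SE; 95% interval 0.64 to 1.56), a 2.14-fold rise, with adjusted p = 0.00314 in limma's moderated test with Benjamini-Hochberg adjustment over the 26922 kept probes. Such calls, at adjusted p under 0.05, were made for 12.8% of kept probes in this comparison, 8.52% as higher, and the groups did not overlap for 22.5%.

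**Figure D1:**
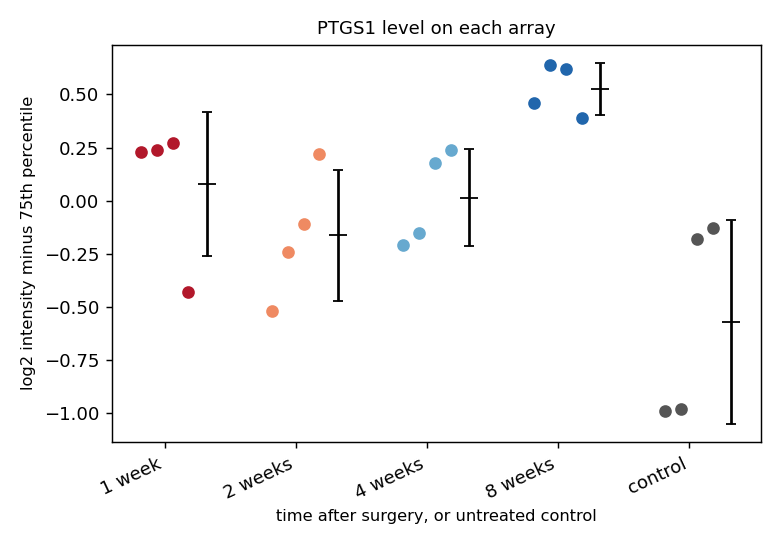
PTGS1 level (log2 intensity minus the array's 75th percentile) on each of 20 arrays in groups of 4; points are arrays, and bars show the mean and SD of each group. The 8-week arrays lie between 0.39 and 0.64, above all 16 others, and the control arrays lie between -0.99 and -0.13.

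Without control replicates 1 and 2, the PTGS1 difference at 8 weeks was 0.68 ± 0.22 and was no longer called (adjusted p = 0.109). It was not called with normexp background correction and an offset of 50 either (0.85 ± 0.18, limma adjusted p = 0.075). That setting called 34 probes of the whole array in this comparison, in place of 3435, so a call lost with it does not single out a gene. Control replicates 1 and 2 were the lowest arrays in PTGS1 and the highest in muscle RNA; the part of muscle in this difference was not tested. All 8 kept muscle genes were called lower at 8 weeks than in control, as 4.24% of kept probes were. Their list means were -4.96 to -4.48 at 8 weeks and -2.59 to 3.77 in control. TTN, ATP2A1, NEB and CASQ2 were kept only through the control group. MYH1, NEB and CASQ2 were above background on 0 of 4 arrays at 8 weeks. The count and the 8-week means thus rest partly on that filter and on values below background. The platelet list, of which 2 of 6 genes were kept, lay at 2.30 to 2.85 at 8 weeks and 2.34 to 2.98 in control, with 0 genes called. This list mean averages unlike levels, those of ITGB3 (mean 6.11 at 8 weeks and 6.23 in control) and ITGA2B (-1.09 and -0.98). The macrophage list, 2 of 5 kept, lay at -1.32 to -0.49 at 8 weeks and -0.25 to 0.41 in control, with 0 genes called. Of 2 neutrophil genes kept of 6, CXCR2, a chemokine receptor, rose by 1.14 ± 0.19 (SE, limma adjusted p = 0.00066; 0.92 and 0.0322 without control replicates 1 and 2, and adjusted p = 0.288 with normexp), and S100A9 differed by 0.53 ± 0.33 (adjusted p = 0.323). CXCR2 differed by -0.01 ± 0.19 at 2 weeks (adjusted p = 0.998), the operated group scanned on the day of the controls. The fibroblast and fibrous matrix list, 5 of 6 kept, lay at 6.77 to 7.29 at 8 weeks and 7.30 to 7.69 in control, ranges that nearly met. Of its genes LUM, which encodes the matrix proteoglycan lumican, was called lower (-1.19 ± 0.32, adjusted p = 0.0222; -0.69 and 0.359 without control replicates 1 and 2). COL3A1, DCN and FN1 differed by -0.31 to -0.20 and were not called (adjusted p = 0.254 to 0.807 in limma). COL1A2 was not called either (-0.11, adjusted p = 0.769). Its mean intensity was 356000 units at 8 weeks and 330000 in control, as bright as the PTGER2 probe whose differences are withheld below. The parts of these cells in the result were not tested.

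At 1 week the PTGS1 levels were 0.23, 0.24, 0.27 and -0.43, a mean of 0.08 ± 0.34 (SD, n = 4). Replicates 1 to 3 lay above all control arrays, and replicate 4 lay within the control range. The difference from control was 0.64 ± 0.22 (SE; 95% interval 0.18 to 1.1; limma adjusted p = 0.058), in a comparison with calls for 13.9% of kept probes. Without replicate 4 of the 1-week group it passed the threshold, as it did without control replicate 3 or 4 (lowest adjusted p = 0.0219 among these fits).

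At 2 weeks the levels were -0.52, -0.24, -0.11 and 0.22, a mean of -0.16 ± 0.30 (SD, n = 4). They overlapped the control levels, and 2 of 4 arrays lay above all control arrays. The difference from control was 0.41 ± 0.22 (95% interval -0.05 to 0.87; limma adjusted p = 0.717), where 0.457% of kept probes were called. These groups shared a scan day, and a fit to those 8 arrays alone gave 0.41 ± 0.26 (adjusted p = 0.725).

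At 4 weeks the levels were -0.21, -0.15, 0.18 and 0.24, a mean of 0.01 ± 0.23 (SD, n = 4). Replicates 3 and 4 lay above all control arrays, and replicates 1 and 2 lay within the control range. The difference from control was 0.58 ± 0.22 (95% interval 0.12 to 1.04; limma adjusted p = 0.112), against calls for 8.55% of kept probes. Over the 4 times, 11 of 16 operated arrays lay above all control arrays in PTGS1 and 0 lay below them. Without control replicates 1 and 2, the differences at 1, 2 and 4 weeks were 0.23, -0.01 and 0.17.

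PTGS1 ordered the groups from high to low as 8 weeks, 1 week, 4 weeks, 2 weeks and control. Of neighbours in that order only 8 weeks and 1 week did not overlap, and the other neighbours did. The difference of 8 weeks minus 1 week was 0.45 ± 0.22 (95% interval -0.01 to 0.91; limma adjusted p = 0.349), where 0.0149% of kept probes were called and 8.02% did not overlap. The 8-week minus 4-week difference was 0.52 ± 0.22 (0.06 to 0.98; adjusted p = 0.329), with 0.561% called and 12% not overlapping. These 3 groups were scanned on the same day and exclude the control arrays, and neither difference passed the threshold over all probes. The 4-week minus 1-week difference was -0.06 ± 0.22 (adjusted p = 0.935), with 1.07% called. After the values had been seen, the 8-week arrays were found to lie above all other 16 arrays, as they did for 74 kept probes (0.275%). The F test among the 5 groups gave adjusted p = 0.0207 for PTGS1, in a test that called 15.8% of kept probes; the call was lost without 8-week replicate 2 or 3, without control replicate 1 or 2 (adjusted p up to 0.0561) and with normexp (0.228).

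PTGS2 did not pass the test in any comparison, and its fitted differences from control were below 0 at all 4 times. Its levels at 8 weeks were -1.36, -1.34, -2.03 and -1.04, against 0.02, -0.43, -0.32 and -1.34 in control. Control replicates 1 to 3 lay above all 8-week arrays, and the groups overlapped through control replicate 4. The mean was -1.44 ± 0.42 at 8 weeks and -0.52 ± 0.58 in control (SD, n = 4 each). The difference was -0.92 ± 0.36 (SE; 95% interval -1.69 to -0.15; limma adjusted p = 0.108). Without control replicate 4 it was called (adjusted p = 0.0367), and without control replicates 1 and 2 it was -0.61 ± 0.45 (adjusted p = 0.58).

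At 1 week the PTGS2 levels were -1.30, -1.65, -0.99 and -0.79, and at 2 weeks -1.65, -0.39, -1.85 and -1.49. Replicate 2 of the 2-week group lay well above the others of its group, within the control range. The differences from control were -0.67 ± 0.36 at 1 week (95% interval -1.43 to 0.10; limma adjusted p = 0.237) and -0.83 ± 0.36 at 2 weeks (-1.60 to -0.06; adjusted p = 0.596). At 4 weeks the levels were 0.07, -0.34, -1.25 and -1.15, so that the 4-week group held the highest value of all 20 arrays and also values in the range of the other operated groups. The 4-week minus control difference was -0.15 ± 0.36 (95% interval -0.92 to 0.62; adjusted p = 0.844). The 1-, 2- and 4-week differences were -0.35, -0.51 and 0.16 without control replicates 1 and 2.

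PTGS2 ordered the groups from high to low as control, 4 weeks, 1 week, 2 weeks and 8 weeks, and all neighbours in that order overlapped. Between operated groups the 4-week minus 1-week difference was 0.51 ± 0.36 (limma adjusted p = 0.598). The 8-week minus 4-week difference was -0.77 ± 0.36 (95% interval -1.54 to 0; adjusted p = 0.384), and the 8-week minus 1-week difference was -0.26 ± 0.36 (adjusted p = 0.778). The F test among the 5 groups gave adjusted p = 0.198.

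**Figure D2:**
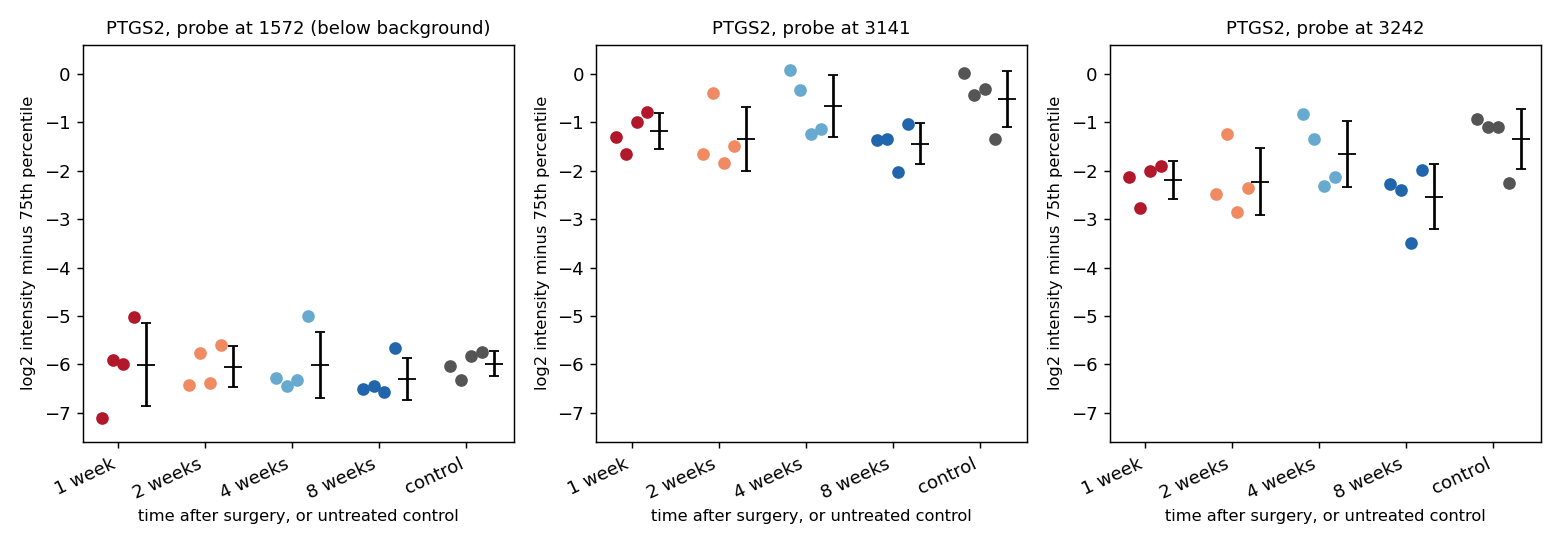
Levels of the 3 PTGS2 probes (log2 intensity minus the array's 75th percentile) on each of 20 arrays; points are arrays, bars show mean and SD, and each panel names the transcript base where the probe starts. The probe at 1572 lies between -7.1 and -4.99 and is below background on every array, while the probes at 3141 and 3242 vary together.

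The PTGS2 probe at 3242 gave the same order of levels between groups. Its values were -2.27, -2.40, -3.50 and -1.98 on the 8-week arrays and -0.93, -1.1, -1.1 and -2.26 on the control arrays, a difference of -1.19 ± 0.41 (SE; 95% interval -2.06 to -0.31; limma adjusted p = 0.0693). This probe differed from control by -0.52, -0.55, 0.02 and -0.86 at 1, 2, 4 and 8 weeks without control replicates 1 and 2, and was not called. Across the 20 arrays the probes at 3141 and 3242 had a Pearson correlation of 0.98, also for deviations from group means, as a description of arrays that share slides. Their difference was 0.67 to 1.47 log2 units on every array. The probe at 1572 had a low signal replaced by the scanner software on 12 of 20 arrays, and levels of -7.1 to -4.99; neither group of any comparison was above background, and no fold is given.

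**Figure D3:**
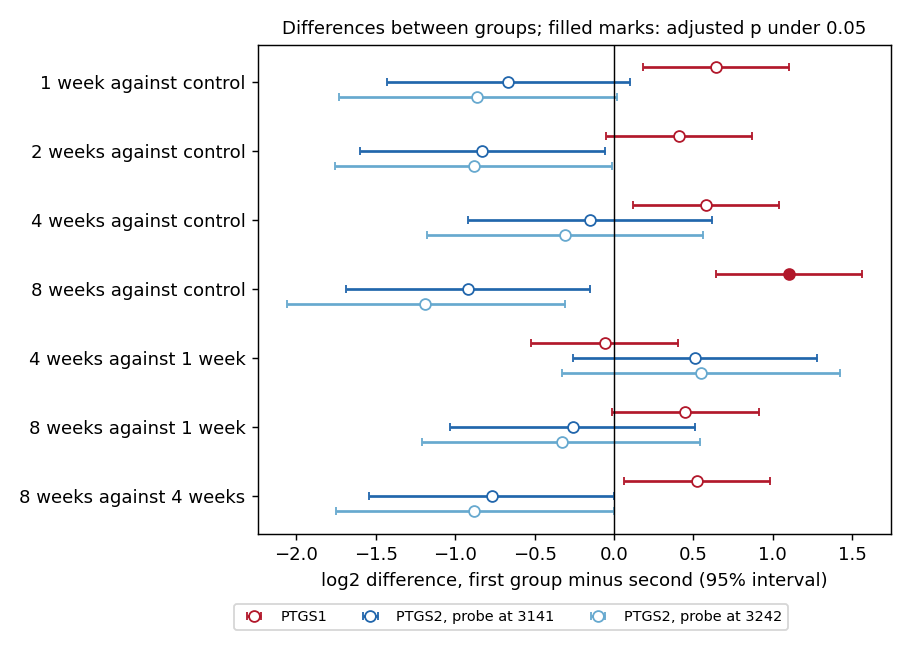
Log2 difference, first-named group minus second, of PTGS1 and of the 2 kept PTGS2 probes in 7 comparisons, with 95% intervals from the limma fit; filled marks passed adjusted p under 0.05. The filled mark is PTGS1 at 8 weeks against control (1.1), and both PTGS2 probes lie below 0 against control at every time (without control replicates 1 and 2, above 0 at 4 weeks, at 0.16 and 0.02).

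The difference between the 2 genes within an array does not depend on how the array is scaled, and it is used here to compare groups, not the abundance of the genes. PTGS1 minus PTGS2 was 1.82, 1.98, 2.65 and 1.43 at 8 weeks, against -1.01, -0.55, 0.14 and 1.21 in control. All 8-week values exceeded all control values, and the lowest control values were those of replicates 1 and 2. The 8-week mean lay 2.02 above the mean of all 4 control arrays and 1.29 above that of control replicates 3 and 4, which was 0.68. The 1-week arrays had 1.53, 1.89, 1.26 and 0.36, the 2-week arrays 1.13, 0.15, 1.74 and 1.71, and the 4-week arrays -0.28, 0.19, 1.43 and 1.39. Group means were 1.26 ± 0.65, 1.18 ± 0.74, 0.68 ± 0.86 and 1.97 ± 0.51 at 1, 2, 4 and 8 weeks, and -0.05 ± 0.97 in control (SD, n = 4 each). This quantity was computed after both genes' values had been seen, and it is given with no test.

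**Figure D4:**
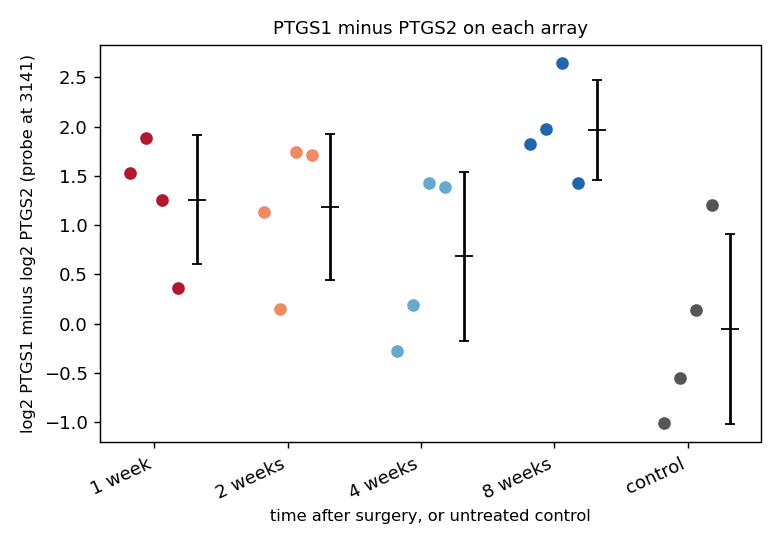
PTGS1 minus PTGS2 (probe at 3141) in log2 units on each array, by group; points are arrays and bars show mean and SD. The 8-week arrays lie between 1.43 and 2.65 and the control arrays between -1.01 and 1.21.

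The rest of the prostanoid pathway was read from lists of 52 genes, of which 19 had a named probe and 16 a kept one. Against control 3 were called higher and 2 lower at 1 week, 0 either way at 2 weeks, 1 higher and 1 lower at 4 weeks, and 0 either way at 8 weeks; 0 were called between operated groups. Of all kept probes, 9.76% were called higher and 4.1% lower at 1 week, and 6.41% higher and 2.14% lower at 4 weeks. The median log2 difference of the 16 was 0.10, -0.05, -0.01 and -0.09 at 1, 2, 4 and 8 weeks, beside 0.03, 0.04, 0.03 and 0.04 over all kept probes. Genes not called with all control arrays were 11, 16, 14 and 16 of 16 at 1, 2, 4 and 8 weeks. Without control replicates 1 and 2, 0 of them were called and 3, 3, 1 and 1 turned sign. These medians and counts include PTGER2, whose differences are withheld below and which turned sign at 1 and 2 weeks.

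Upstream of the synthases, neither of the 2 measured phospholipases that release arachidonate was called. PLA2G4A, the cytosolic phospholipase A2, differed from control by -0.57 ± 0.54 at 1 week and -0.21 ± 0.54 at 8 weeks (SE; limma adjusted p = 0.522 and 0.851). Without control replicates 1 and 2, PLA2G4A differed by -1.46 and -1.1 at these times (adjusted p = 0.121 and 0.306), so the size depends on those arrays. PLA2G6, a calcium-independent phospholipase A2, was above background on 0 of 4 control arrays and on 4 of 4 at 8 weeks. Its fitted difference at 8 weeks was 0.8 ± 0.43, and the groups overlapped (SE, limma adjusted p = 0.243). Without control replicates 1 and 2 it was 0.35 ± 0.52 (adjusted p = 0.831). The control values lay below background, so no fold is given.

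Of 3 measured terminal synthases, PTGDS, lipocalin-type prostaglandin D synthase, rose at 1 week. Its levels were -1.61 to -0.95 at 1 week and -2.12 to -1.74 in control, without overlap (as for 16.8% of kept probes), and the difference was 0.52 ± 0.14 (SE, limma adjusted p = 0.0189). It was 0.44 ± 0.14 at 4 weeks (limma adjusted p = 0.0593) and 0.28 ± 0.14 at 8 weeks (adjusted p = 0.214), also without overlap, as for 17.7% of kept probes at 4 weeks and 22.5% at 8 weeks. CBR1 and AKR1B1, reductases that act on prostaglandins among other substrates, differed from control by -0.30 to 0.08 and -0.20 to 0.08 over the 4 times, and neither was called.

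Among the prostanoid receptors, PTGER4, a Gs-coupled receptor of prostaglandin E2, fell at 1 week. Its levels were -0.76 to 0.73 at 1 week and 1.20 to 1.81 in control, and it fell by 1.12 on the log2 scale (SE 0.28, limma adjusted p = 0.0124). Of its 6 probes, 3 were called lower at 1 week, with differences reaching -1.28, and 1 of the other 3 had the opposite sign, 0.48. At 8 weeks PTGER4 differed by -0.54 ± 0.28 without overlap, as for 22.5% of kept probes (limma adjusted p = 0.22), and 3 of its 6 probes had the opposite sign. PTGER3, a Gi-coupled receptor of prostaglandin E2, differed by 0.90 ± 0.55 at 1 week and -0.12 ± 0.55 at 8 weeks (adjusted p = 0.289 and 0.919). Without control replicates 1 and 2, this PTGER3 probe differed by 0.1 and -0.92 at these times (adjusted p = 0.935 and 0.408). The other 4 kept PTGER3 probes were positive at 8 weeks, at up to 1.07 ± 0.58 (adjusted p = 0.249), and 0 of the 5 kept probes were called at any time. PTGER2 rested on 1 of 6 probes, the other 5 not being kept. That probe read 273460 to 401912 units, the fifth to the seventeenth brightest on an array and flagged as saturated on 0 of 20. Its intensity spanned 1.47-fold over arrays whose 75th percentile spanned 3.69-fold, and its level was highest, 10.79, on the array of the lowest percentile and lowest, 9.29, on that of the highest. Differences between groups are therefore not given for PTGER2. TBXA2R, the thromboxane receptor, differed by 0.65 ± 0.50 at 8 weeks (adjusted p = 0.432). It was kept only through the 8-week group, with 3 of 4 arrays above background there and 1 of 4 in control. PTGER1 was not kept.

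**Figure D5:**
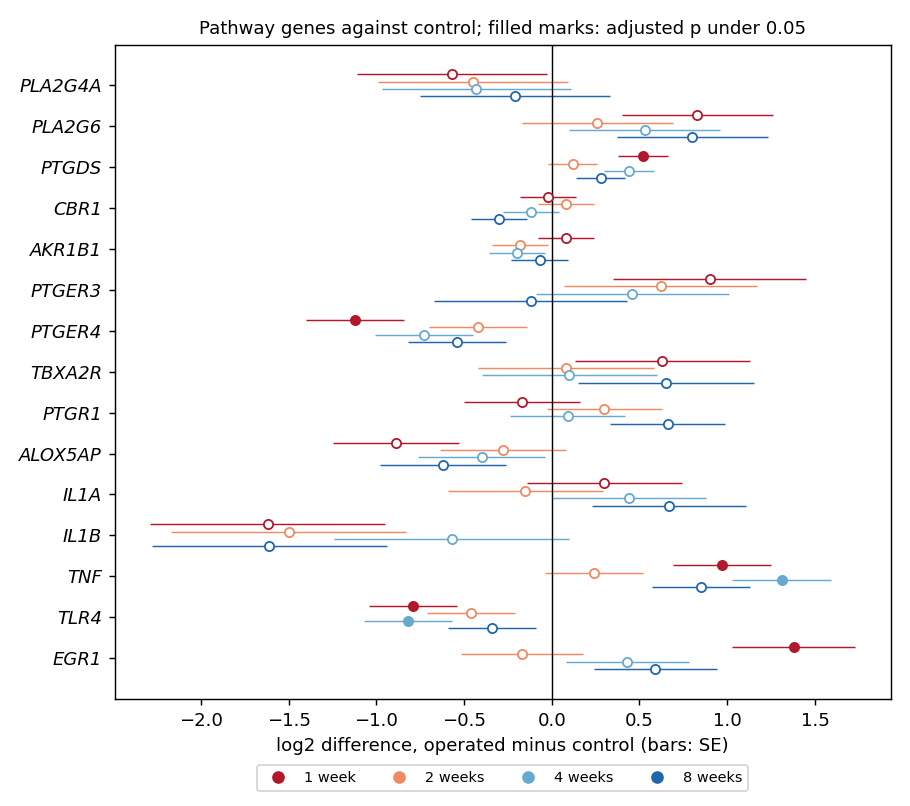
Log2 difference, operated minus control, of 15 pathway genes with a kept probe (all but PTGER2) at 1, 2, 4 and 8 weeks, with SE bars; filled marks passed limma's adjusted p under 0.05. PTGDS, TNF and EGR1 are filled above 0 and PTGER4 and TLR4 below 0 at 1 week, TNF and TLR4 again at 4 weeks, and EGR1 and PLA2G6 were not above background in control, so their values there are fitted.

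PTGR1, a reductase that inactivates prostaglandins and leukotriene B4, differed from control by 0.66 ± 0.33 at 8 weeks (SE, limma adjusted p = 0.209), with all 5 probes of that sign. ALOX5AP, the protein that presents arachidonate to 5-lipoxygenase, differed by -0.89 ± 0.36 at 1 week (adjusted p = 0.107). All 5 ALOX5AP probes were negative and 1 was called, at -1.25. ALOX15 was not kept.

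Inducers of PTGS2 went both ways at 1 week. TNF, a cytokine, rose by 0.97 ± 0.28 at 1 week and 1.31 ± 0.28 at 4 weeks (SE, limma adjusted p = 0.027 and 0.00628), with ranges that overlapped control; 3 of its 5 probes had that sign and 2 the opposite one at both times, reaching -1.23 at 4 weeks. At 8 weeks TNF differed by 0.85 ± 0.28 (adjusted p = 0.053), and another of its probes was called (0.77, adjusted p = 0.0423). At 2 weeks, on the scan day of the controls, it differed by 0.24 ± 0.28 (adjusted p = 0.933). TLR4, the endotoxin receptor, fell by 0.79 at 1 week and 0.82 at 4 weeks (SE 0.25 each, limma adjusted p = 0.0395 and 0.0482). Its ranges did not overlap control at these times, as for 16.8% and 17.7% of kept probes. At 2 weeks TLR4 differed by -0.46 ± 0.25 (adjusted p = 0.715). Macrophages also express TLR4, and both kept macrophage markers were called lower at 4 weeks, CD14 by -1.29 (adjusted p = 0.0134) and MSR1 by -2.05 (0.0355). List means were -2.72 to -0.38 at 4 weeks and -0.25 to 0.41 in control. Neither marker was called without control replicates 1 and 2 (CD14 -1.26, adjusted p = 0.107, and MSR1 -1.95, 0.22). MSR1 was above background on 2 of 4 arrays at 4 weeks. At 1 week the list lay at -1.24 to -0.41 with 0 called; the part of macrophages in the TLR4 result was not tested. EGR1, an immediate early transcription factor, was above background on 4 of 4 arrays at 1 week and 0 of 4 in control. Its fitted difference at 1 week was 1.38 ± 0.35 (SE, limma adjusted p = 0.0146). At 2 weeks EGR1 was above background on 1 of 4 arrays (adjusted p = 0.978), and PTGDS and PTGER4 differed from control by 0.12 ± 0.14 and -0.42 ± 0.28 (adjusted p = 0.931 and 0.81). The part of scan day in these results was not tested. IL1B, which encodes interleukin 1 beta, had wide arms, -4.18 to -1.95 at 8 weeks and -2.32 to -0.26 in control, and differed by -1.61 ± 0.67 (adjusted p = 0.125). Its 3 kept probes were all negative at 8 weeks, from -1.61 to -0.43, and 0 were called. IL1A differed by 0.67 ± 0.44 at 8 weeks (adjusted p = 0.355), and IL6 was not kept. Without control replicates 1 and 2, only TNF at 4 weeks kept its call among these pathway calls (1.36, limma adjusted p = 0.0171), and with normexp 0 did (lowest adjusted p = 0.175). Normexp called 44 probes of the whole array at 1 week and 28 at 4 weeks, in place of 3731 and 2303. Its loss of a call thus does not single out these genes. For these called genes the differences themselves stayed close in size with the 2 remaining control arrays. At 1 week they were 0.49 for PTGDS, -0.96 for PTGER4, 1.03 for TNF, -0.76 for TLR4 and a fitted 1.24 for EGR1 (adjusted p = 0.0536 to 0.2), and TLR4 gave -0.78 at 4 weeks (0.253). In fits without 1 array, PTGER4 at 1 week and TNF at 4 weeks stayed called. PTGDS lost its call without 1-week replicate 4 or control replicate 1 or 3 (adjusted p up to 0.0677), and EGR1 without 1-week replicate 4 (0.051). TNF at 1 week lost it without 1-week replicate 2 or 4 or control replicate 1 or 4 (up to 0.096), and TLR4 at 1 week without 1-week replicate 1 or 4 or control replicate 1, 2 or 3 (up to 0.124). TLR4 at 4 weeks lost it in 14 of 20 such fits, with any control array left out among them (up to 0.145).

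Of 656 other named genes with a kept probe, those whose levels followed PTGS1 most closely over the 20 arrays were CORO1A, an actin regulator of leukocytes (Pearson r 0.82), ECE1, endothelin-converting enzyme (0.81), VDR, the vitamin D receptor (0.77), EIF2B2, a translation initiation factor subunit (0.77), and LCAT, a cholesterol-esterifying plasma enzyme (0.76). For deviations from group means the values were 0.79, 0.49, 0.72, 0.48 and 0.50. CORO1A lay at 0.63 to 0.75 at 8 weeks and 0.03 to 0.33 in control, without overlap, as for 22.5% of kept probes. Its difference was 0.47 ± 0.19 and was not called (SE, limma adjusted p = 0.123). For PTGS2 they were STK17A, a serine/threonine kinase (0.70), SAA3, an acute-phase serum amyloid A (0.66), SLC25A24, a mitochondrial carrier (0.61), HIF1A, the hypoxia-inducible factor subunit (0.59), and TTN, the sarcomere protein titin (0.55). Within groups these were 0.58, 0.70, 0.42, 0.68 and 0.33. The TTN probe was kept through the control group, where it was above background on 3 of 4 arrays, against 0, 0, 2 and 2 of 4 at 1, 2, 4 and 8 weeks, so its correlation rests largely on values below background set against controls with muscle RNA. SAA3 lay at 1.22 to 2.43 at 8 weeks and 1.86 to 4.98 in control. These correlations describe 20 arrays that share slides and differ in muscle RNA.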

How the data were processed

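The deposited values are the processed signal of each spot, an intensity in linear units; per the file headers, Agilent Feature Extraction 10.7.1.1 read the arrays, and per the labels RNA was labelled with Cy3. The authors' value table also holds intensity: 16 of its columns matched their own array, and each 8-week column matched another array of that group, so replicate numbers there are uncertain. Scanner files were used. Control spots and outlier spots (5 to 62 per array) were left out, spots of a probe were averaged, log2 was taken after scaling by the 75th percentile, and probes well above background on 3 of 4 arrays of a group were kept. Fits used limma 3.58.1 in R 4.3.3 over all 20 arrays, with 5 group means, 7 contrasts and Benjamini-Hochberg adjustment; the test was checked on simulated data. PTGS1 and PTGS2 were matched through RefSeq accession and synonym; 883 genes were named. A gene is represented by its kept probe of the highest mean. The text names both synthases, every gene of the pathway lists with a probe, and the 5 genes most correlated with each synthase. Members and lists were chosen with earlier results of these data known. The number of arrays limits the precision. Alternatives were background correction, scaling, filters, blocks, array weights, other probes and leaving out arrays.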

Additional observations from a re-analysis of the deposited data

Results flagged for a closer look

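In 20 combinations of probe and group, 4 had an array far from the other 3, by the gap to the nearest array over the range of the group; chance gives about 1 in 20. PTGS1 on replicate 4 of the 1-week group was -0.43, against 0.23 for the nearest array of that group, a gap of 0.949 of the range; this array also had the lowest 75th percentile of intensity, 174.1, and the lowest share of spots above background, 49.1%. The PTGS2 probe at 3242 was -2.26 on control replicate 4, with the nearest at -1.10. The PTGS2 probe at 1572, below background throughout, was -4.99 on replicate 4 of the 4-week group (nearest -6.27) and -5.65 on replicate 4 of the 8-week group (nearest -6.45).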

How the results depend on the processing

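The PTGS1 rise at 8 weeks held in all 20 fits that left out 1 array (0.96 to 1.25, limma adjusted p = 0.00133 to 0.0153) and was lost with normexp background correction (0.85, adjusted p = 0.075) and without control replicates 1 and 2 (0.68), an alternative chosen after seeing the data, as were all those of pathway genes and CXCR2. Array weights called PTGS1 at 1 week (0.80) and 4 weeks (0.67). Without control replicates 1 and 2 the sign turned for PTGS1 at 2 weeks (-0.01) and PTGS2 at 4 weeks (0.16). The PTGS2 probe at 1572 gives no value, being below background throughout. The PTGS1 F test gave 0.228 with normexp. Causes were not tested. Leaving out 1 array gave, for PTGS1 at 1, 2 and 4 weeks, 0.50 to 0.81, 0.27 to 0.55 and 0.44 to 0.73; for its 4-week minus 1-week, 8-week minus 1-week and 8-week minus 4-week differences -0.23 to 0.01, 0.28 to 0.52 and 0.44 to 0.59; and for its F test 0.00782 to 0.0561, the call being lost without 8-week replicate 2 or 3 or control replicate 1 or 2. PTGS2 gave -0.94 to -0.49, -1.15 to -0.65, -0.43 to 0.04 and -1.20 to -0.73 against control, 0.27 to 0.71, -0.41 to -0.06 and -0.96 to -0.53 between times, and F tests of 0.0839 to 0.331.

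The replicate numbers did not pair the arrays (correlation of same-numbered deviations -0.33 to 0.38 over 40 pairs, median 0.01). With replicate block, PTGS1 at 8 weeks kept its call (1.1, adjusted p = 0.00385), and the 8-week minus 1-week comparison called 7 probes in place of 4.

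Counts of called probes are given for 1, 2, 4 and 8 weeks against control, then 4 minus 1, 8 minus 1 and 8 minus 4 weeks. As reported they were 3731, 123, 2303, 3435, 289, 4 and 151. Normexp gave 44, 0, 28, 34, 13, 0 and 15. Keeping probes above background on all 20 arrays gave 2205, 8, 928, 2137, 142, 0 and 98. Array weights moved 6 of these, to 368, 5019, 5568, 933, 270 and 1513 from 2 weeks on. Fits to the 2 groups compared gave 1426 at 1 week, 0 at 2 weeks, 29, 0 and 249 between times, and fits within the scan day 0 at 2 weeks and 192, 1 and 62 between times. No filter gave 74 at 2 weeks and 38 for 8 minus 1 week, where median centring gave 9 and quantile scaling 35. Without control replicates 1 and 2 the first 4 were 1479, 54, 775 and 963. Beside the counts of 0, the limma fit as reported had 2094 probes at 2 weeks and 3939 for 8 minus 1 week at unadjusted p under 0.05. Leaving out 1 array gave 2422 to 4290, 31 to 204, 1309 to 3696, 2013 to 4705, 190 to 747, 0 to 76 and 90 to 414. Median centring moved the median of all probes to -0.11, 0.05, -0.10 and -0.12 against control and the share called higher to 50.2%, 57.9%, 53.7% and 39.4%, against 70.4%, 53.7%, 74.9% and 66.8% as reported.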
